A study of Mus musculus with 24 samples.

Results

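Cholesterol reaches a cell by synthesis and by uptake, and the genes of both routes were followed here in the supporting cells of the mouse fetal gonad. A fixed list of 32 gene symbols, of the 32040 in the deposited tables, named enzymes of cholesterol synthesis, regulators of sterol balance, and proteins of cholesterol uptake, export and storage. All 32 were found, and all 32 passed the filter on low counts that left 16190 genes for testing. RNA was measured in 24 libraries, 3 for each of 8 groups of sex and embryonic day (E11.5, E12.5, E13.5, E15.5). The XX libraries held pre-granulosa cells, the future support cells of the ovary, sorted from female fetal gonads of the Tg(Enh8-mCherry) line. The XY libraries held Sertoli cells, the support cells of the testis, sorted from male fetal gonads of the SOX9-IRES-GFP line. No further treatment or allele is named in the labels, which do not describe what drives the mCherry transgene, and the number of embryos behind a library is not given. Sex, mouse line and fluorescent reporter changed together, so their parts in an XX minus XY difference cannot be told apart.

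Cells build cholesterol from acetyl-CoA. The mevalonate arm makes isoprenoid units and joins them into farnesyl diphosphate, and the sterol arm makes squalene, closes it into lanosterol and trims lanosterol to cholesterol. The transcription factors SREBP1 and SREBP2, encoded by Srebf1 and Srebf2, are made as membrane proteins of the endoplasmic reticulum. When sterols are scarce, SCAP escorts them to the Golgi, where they are cut and freed to activate genes of lipid synthesis; when sterols are abundant, INSIG proteins hold SCAP back. The liver X receptors, encoded by Nr1h2 and Nr1h3, are activated by oxysterols and turn on genes of sterol export. In gonads, cholesterol is also the starting material of steroid hormones, and hedgehog ligands, one of which Sertoli cells secrete, carry it as a covalent tail.

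Total counts per library ranged from 11275251 to 37256881, so that 3 counts, taken as the floor of detection, corresponded to 0.0774 to 0.26 CPM. CPM, the count scaled for library size, is used as the level of a gene across libraries, and TPM, which also corrects for transcript length, wherever levels of different genes are compared or summed. The labelled cell types were checked against marker genes. The summed TPM of 9 Sertoli markers, which include Sox9, the gene whose reporter sorted the XY cells, was between 8413.4 and 10393.2 in XY libraries from E12.5 on, 1037.4 to 1937.9 at XY E11.5, and 100.6 to 220.5 in XX E11.5 libraries. The summed TPM of 8 pre-granulosa markers was 218.2, 592.5 and 177.3 in XX E11.5 replicates 1 to 3 and 1.39 to 32.1 in XY libraries. Replicate 2 thus stood apart. In the same order, Foxl2 was at 2.62, 35.2 and 4.73 CPM and Irx3 at 15.3, 154.0 and 6.42. Runx1, at 79.9, 68.1 and 73.6 CPM, did not follow them. Markers of other cells were not absent. Summed immune markers (9 genes) were 178.3 to 499.8 TPM in XX E11.5 libraries, 45.5 to 81.9 in later XX libraries and 0.67 to 4.13 in XY libraries, and summed erythroid markers (6 genes) were 5290.8 to 55807.9 TPM at XX E11.5 and 18.6 to 53.6 at XY E11.5. Interstitial markers (6 genes) summed to 121.9 to 490.1 TPM in XX, 307.9 to 503.9 at XY E11.5 and 7.27 to 38.9 in later XY libraries. Surface epithelium markers (5 genes) summed to 260.4 to 311.0 TPM in XX and 12.1 ± 1.11 (SD, n = 3) in XY on E15.5. In the same order, germ cell markers (7 genes) summed to 114.4 to 181.2 and 46.8 to 87.2, and endothelial markers (6 genes) to 13.8 to 17.1 and 13.4 to 14.4. The endothelial markers Kdr and Pecam1 went opposite ways, with means of 32.1 and 5.74 CPM in XX, against 6.29 and 15.6 in XY. The part of all these other cells in the differences below was not tested. In bulk RNA, fewer cells of a type and less RNA per cell cannot be told apart. For XX E13.5 replicate 1, the title gives E13.5 while another label field gives E12.5. Without that library the numbers of cholesterol genes that passed the test were 22 instead of 24 for XX minus XY on E13.5, 14 instead of 17 for XX E13.5 minus E12.5, and 10 instead of 13 for XX E15.5 minus E13.5.

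Promoter letters were available in RefSeq (GRCm38.p6, the mm10 build that the submitters' processing notes name) for 25 of the 32 genes, which left out Fdps, Fdft1, Sqle, Scarb1, Abcg1, Npc1 and Stard4. Windows of 250 bases before to 50 after each annotated start were searched on both strands for a sterol regulatory element (TCACNCCAC, a consensus for SREBP binding), the CCAAT box, the GC box (GGGCGG) and an E-box (CACGTG). These motifs do not share letters in a way that makes one contain another. The sterol regulatory element was found in 1 of the 25 genes, Hmgcs1, against 1.44% of all 27025 genes in the table. The CCAAT box was in 20 of 25 (14 of the 15 synthesis enzymes in the table) against 41.1% of all genes, the GC box in 22 of 25 against 38.2%, and the E-box in 6 of 25 against 8.09%. The 27025 genes were not limited to those that passed the count filter, as all 32 did. These shares are thus not matched for expression. A match is a description of letters and not evidence of a bound site. With matched motifs in capitals, the 150 bases before the start are given for 6 genes on which the results turn: Hmgcs1 as the carrier of the sterol regulatory element, Dhcr7 and Sc5d as neighbouring late enzymes with opposite differences between the sexes, Srebf2 and Scap as regulators that fell together in XX cells, and Soat1 as the gene higher in XX at all 4 stages. Where GENCODE M21 places the gene's start further upstream than RefSeq does, the stretch ends before both. All are written 5′ to 3′ on the gene's strand.
Hmgcs1, chr13:119690201-119690350, plus strand: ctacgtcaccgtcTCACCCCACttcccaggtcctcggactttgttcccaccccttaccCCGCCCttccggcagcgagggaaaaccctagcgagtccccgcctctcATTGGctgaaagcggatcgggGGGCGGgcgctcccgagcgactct
Dhcr7, chr7:143822995-143823144, plus strand: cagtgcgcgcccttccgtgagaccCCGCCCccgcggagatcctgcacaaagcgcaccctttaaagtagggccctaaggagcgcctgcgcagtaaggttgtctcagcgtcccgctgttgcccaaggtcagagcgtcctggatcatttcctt
Sc5d, chr9:42264301-42264450, minus strand: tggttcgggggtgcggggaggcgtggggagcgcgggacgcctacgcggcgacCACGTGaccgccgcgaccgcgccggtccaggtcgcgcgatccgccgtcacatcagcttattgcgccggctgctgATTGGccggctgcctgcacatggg
Srebf2, chr15:82147031-82147180, plus strand: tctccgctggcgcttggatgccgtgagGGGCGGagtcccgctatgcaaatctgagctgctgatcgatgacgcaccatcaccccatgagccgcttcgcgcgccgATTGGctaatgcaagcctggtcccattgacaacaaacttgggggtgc
Scap, chr9:110333138-110333287, plus strand: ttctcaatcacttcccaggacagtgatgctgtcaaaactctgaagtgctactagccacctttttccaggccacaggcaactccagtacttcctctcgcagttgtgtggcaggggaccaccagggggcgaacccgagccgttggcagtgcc
Soat1, chr1:156474332-156474481, minus strand: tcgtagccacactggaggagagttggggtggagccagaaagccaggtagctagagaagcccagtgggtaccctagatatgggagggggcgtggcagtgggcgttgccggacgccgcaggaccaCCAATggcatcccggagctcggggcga
In the printed stretch of Hmgcs1, the sterol regulatory element begins 137 bases before the start, with a CCAAT box on the other strand at 45 and GC boxes at 92 and 24. Scap has none of the 4 motifs in its printed stretch, and Soat1 has a single CCAAT box, 30 bases before its start. The full windows searched hold more: a GC box and an E-box for Scap, which has 2 annotated starts, and a GC box for Soat1.

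The comparison of XX with XY cells at each stage asked where the supporting cells of the sexes diverge. The share of the 32 genes that differed was near that of all genes or somewhat above it. On E11.5, E13.5 and E15.5 most of those that differed were higher in Sertoli cells, while the split on E12.5 depended on the unit. At E11.5, 17 of the 32 passed the edgeR test at an adjusted p under 0.05, against 42.0% of all genes tested. Of these, 4 were higher in XX (background 21.4%) and 13 higher in XY (background 20.6%). In a fit of only the 6 libraries of E11.5, 10 of the 32 passed. At E12.5, 21 passed (background 62.1%), 7 higher in XX (background 30.5%) and 14 higher in XY (background 31.5%). With TPM in place of counts (limma on log2(TPM + 1)), the E12.5 split was 10 higher and 11 lower in XX, and the median of all genes moved by 0.15. At E13.5, 24 passed (background 66.1%), 5 higher in XX (background 32.8%) and 19 higher in XY (background 33.3%). At E15.5, 26 passed (background 69.4%), 8 higher in XX (background 34.9%) and 18 higher in XY (background 34.4%). The median log2 difference of the 32 genes was -0.05, -0.19, -0.55 and -0.44 at the 4 stages in order, beside 0.02, -0.01, 0.01 and 0.05 for all genes. Soat1 was higher in XX at all 4 stages, and Fdps, Fdft1, Msmo1, Nsdhl, Dhcr7 and Srebf1 were higher in XY at all 4, which makes 7 genes with 1 sign throughout (background 17.9%). Hmgcs1, Nr1h2, Abca1 and Abcg1 passed with opposite signs at different stages (background 13.9%).

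**Figure D1:**
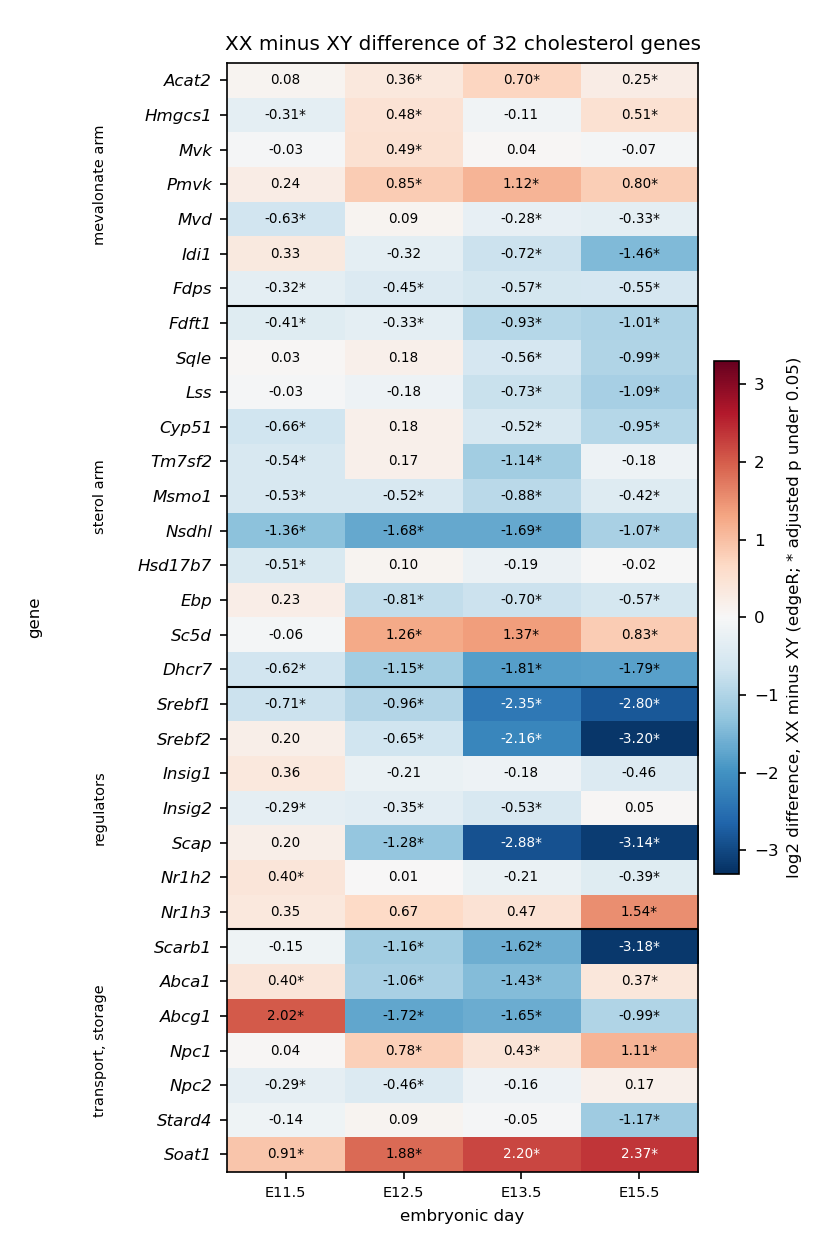
Log2 difference between XX and XY libraries (3 against 3) for the 32 cholesterol genes (rows, by role) at each embryonic day (columns), from the edgeR fit; red is higher in XX, blue is higher in XY, and a star marks an adjusted p under 0.05. Srebf1, Srebf2, Scap and Scarb1 reach -2.80 to -3.20 on E15.5, while Soat1 reaches 2.37.

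In the mevalonate arm, enzymes with more RNA in XX and enzymes with more in XY were both found. Of its 7 enzymes, those higher in XX and those higher in XY numbered 0 and 3 on E11.5, 4 and 1 on E12.5, 2 and 3 on E13.5, and 3 and 3 on E15.5. Over all genes the shares higher in XX and in XY were 21.4% and 20.6%, 30.5% and 31.5%, 32.8% and 33.3%, and 34.9% and 34.4% in the same order, and the counts of this arm on E13.5 and E15.5 lie near them. Pmvk, the phosphomevalonate kinase, and Acat2, the cytosolic thiolase that starts the pathway, were higher in XX from E12.5 on. Fdps, the farnesyl diphosphate synthase, was higher in XY at every stage.
Pmvk stood at 34.2, 44.7 and 40.6 CPM on E11.5, 38, 40 and 40.8 on E12.5, 46.7, 48.6 and 45.5 on E13.5 and 47.7, 36.7 and 42.1 on E15.5 in XX libraries. In XY libraries Pmvk stood at 31.7, 33 and 36.4 CPM on E11.5, 25.9, 18.6 and 21.3 on E12.5, 18.2, 23.7 and 22.7 on E13.5 and 21.6, 25.9 and 25.3 on E15.5. The XX level stayed near that of E11.5 while the XY level was lower from E12.5 on, and the sexes did not overlap at those 3 stages. The log2 difference in Pmvk, XX minus XY ± SE from the edgeR fit, was 0.85 ± 0.13 (adjusted p = 1.05e-05) on E12.5, 1.12 ± 0.13 (adjusted p = 2.25e-07) on E13.5 and 0.80 ± 0.13 (adjusted p = 1.80e-05) on E15.5.
Fdps, in the same order, was at 113.8, 104.8 and 99.8 CPM on E11.5, 87.1, 86.4 and 84.4 on E12.5, 128.6, 124.2 and 120.3 on E13.5 and 153.0, 128.4 and 136.3 on E15.5 in XX libraries. XY libraries held 139.5, 135.4 and 122.5 CPM on E11.5, 123.7, 118.1 and 111.6 on E12.5, 177.2, 193.4 and 183.0 on E13.5 and 198.2, 197.1 and 218.0 on E15.5. Every XY library lay above every XX library of its stage, and the margin was narrowest on E11.5. The log2 difference in Fdps ran from -0.32 (adjusted p = 0.00281) on E11.5 to -0.57 (adjusted p = 2.30e-06) on E13.5. The gene shares 1124 exonic bases on the same strand with Gm43738, so its counts are uncertain.
Idi1, which interconverts the building blocks of isoprenoids, was spread widely at XX E11.5, with 95, 30.3 and 67.5 CPM. Its XX libraries on E15.5 held 22.1, 25.5 and 25.9 CPM, below the XY E15.5 libraries at 70.8, 71.4 and 60.8 CPM. In XX cells the Idi1 change between E11.5 and E15.5 was -1.39 ± 0.24 (adjusted p = 6.40e-05). The log2 difference in Idi1 between the sexes was -0.72 ± 0.24 (adjusted p = 0.0117) on E13.5 and -1.46 ± 0.24 (adjusted p = 2.03e-05) on E15.5. Hmgcs1, the HMG-CoA synthase, changed sign. Hmgcs1 was at 266.5, 188.1 and 206.3 CPM on E11.5, 285.5, 270.5 and 255.8 on E12.5, 279.3, 292.8 and 286.7 on E13.5 and 412.9, 412.4 and 408.8 on E15.5 in XX libraries. In XY libraries Hmgcs1 was at 322.1, 257.5 and 242.0 CPM on E11.5, 201.6, 191.6 and 190.8 on E12.5, 297.4, 307.4 and 318.8 on E13.5 and 295.9, 299.2 and 272.9 on E15.5. XY lay above XX on E11.5 with overlapping libraries, below it on E12.5 and below it again on E15.5 without overlap, and the E13.5 values did not pass the test. The log2 differences that passed were -0.31 ± 0.11 (adjusted p = 0.022) on E11.5, 0.48 ± 0.11 (adjusted p = 6.13e-04) on E12.5 and 0.51 ± 0.11 (adjusted p = 2.51e-04) on E15.5. The E11.5 value of Hmgcs1 no longer passed without XX replicate 2 (-0.22), XX replicate 3 (-0.28) or XY replicate 1 (-0.19). The E13.5 value of Idi1 was lost without replicate 1 of either sex (-0.63 each time). Mvk and Mvd, the kinase that gives the pathway its phosphomevalonate and the decarboxylase that yields the first isoprenoid unit, passed at some stages: Mvk passed on E12.5 alone (0.49, adjusted p = 0.0144), and Mvd was higher in XY on E11.5, E13.5 and E15.5 with log2 differences of -0.63, -0.28 and -0.33. After trends on GC content and transcript length were removed, the Mvd value was -0.16 (adjusted p = 0.0866) on E13.5 and -0.01 (adjusted p = 0.893) on E15.5. The calls of Mvd on those days, and that of Acat2 on E15.5 (0.25), were also lost when any of several single libraries was left out. With the trends removed, Acat2 on E15.5 was at 0.05 (adjusted p = 0.689).

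On E11.5, E13.5 and E15.5, most enzymes of the sterol arm were higher in Sertoli cells. Of 11, 7 were higher in XY on E11.5, 5 on E12.5, 9 on E13.5 and 8 on E15.5, beside 20.6%, 31.5%, 33.3% and 34.4% of all genes, while those higher in XX numbered 0, 1, 1 and 1. With TPM in place of counts the E12.5 split of the sterol arm was 3 higher and 4 lower in XX, and that of all 18 synthesis enzymes 8 and 5 instead of 5 and 6. The median log2 difference of the arm was -0.51, -0.18, -0.73 and -0.95 at the 4 stages. Sc5d, a late desaturase, was the enzyme of this arm that was higher in XX from E12.5 on. Dhcr7, the reductase that acts on the product of SC5D, was higher in XY at every stage.
Dhcr7 lies at chr7:143823145-143848410 and Sc5d at chr9:42251595-42264256 (GRCm38). Dhcr7 was at 28.6, 28.5 and 24.3 CPM on E11.5, 38.2, 40.9 and 43.5 on E12.5, 36.2, 32.3 and 33.8 on E13.5 and 38.5, 35.7 and 29.5 on E15.5 in XX libraries. XY libraries held Dhcr7 at 42.7, 44.9 and 37.8 CPM on E11.5, 87, 94.9 and 90.1 on E12.5, 123.4, 119.1 and 116.4 on E13.5 and 119.0, 118.3 and 121.2 on E15.5. XX libraries stayed within 24.3 to 43.5 CPM throughout, whereas XY libraries climbed between E11.5 and E13.5. The Dhcr7 difference was -0.62 ± 0.10 (adjusted p = 2.61e-05) on E11.5, -1.15 ± 0.10 (adjusted p = 1.32e-09) on E12.5, -1.81 ± 0.10 (adjusted p = 1.15e-12) on E13.5 and -1.79 ± 0.10 (adjusted p = 1.19e-12) on E15.5.
Sc5d was at 47.7, 34.8 and 43.9 CPM on E11.5, 34.2, 34.2 and 36.1 on E12.5, 36.7, 35.2 and 40.9 on E13.5 and 38, 40.6 and 36.6 on E15.5 in XX libraries. Sc5d in XY libraries was at 42.7, 44.1 and 44.8 CPM on E11.5, 15.3, 15.2 and 13.2 on E12.5, 14.6, 14.3 and 14.8 on E13.5 and 22.1, 21.4 and 21.3 on E15.5. The sexes overlapped on E11.5. XY libraries then fell to 13.2 to 15.3 CPM and rose on E15.5, where they stayed below every XX library. The Sc5d difference was 1.26 ± 0.10 (adjusted p = 9.88e-10) on E12.5, 1.37 ± 0.10 (adjusted p = 2.44e-10) on E13.5 and 0.83 ± 0.10 (adjusted p = 3.06e-07) on E15.5.
Nsdhl, an X-linked dehydrogenase that removes methyl groups at carbon C-4 of the sterol ring, was at 19, 21.6 and 21.9 CPM on E11.5, 24.9, 23.2 and 24.1 on E12.5, 33.4, 32.4 and 31.6 on E13.5 and 34.3, 34.3 and 35.7 on E15.5 in XX libraries. Nsdhl in XY libraries was at 62.3, 46.4 and 51.6 CPM on E11.5, 70.4, 80.9 and 80.7 on E12.5, 107.2, 102.9 and 104.4 on E13.5 and 71.4, 72.4 and 75.2 on E15.5. The gap was open on E11.5 already, and the lowest XY library (46.4 CPM) lay above the highest XX library of any stage (35.7 CPM). The Nsdhl difference was -1.36 ± 0.09 (adjusted p = 4.47e-10), -1.68 ± 0.09 (adjusted p = 2.38e-12), -1.69 ± 0.09 (adjusted p = 2.00e-12) and -1.07 ± 0.09 (adjusted p = 1.95e-09) at the 4 stages in order. Ebp, the other X-linked enzyme of the arm, an isomerase, had XX libraries at 24.2, 23.4 and 27.8 CPM and XY libraries at 50.9, 40.3 and 40.5 CPM on E12.5, a log2 difference of -0.81 ± 0.13 (adjusted p = 1.27e-05), and stayed higher in XY on E13.5 (-0.70) and E15.5 (-0.57). In XY cells Ebp rose from 25.9, 25.5 and 22.5 CPM on E11.5 to 50, 56.7 and 55.3 CPM on E15.5 (1.13 ± 0.13, adjusted p = 1.48e-07).
Fdft1, squalene synthase and the first enzyme committed to sterols, was at 70, 61.4 and 70.7 CPM on E11.5, 52.6, 57.5 and 59.6 on E12.5, 65, 63.1 and 56.6 on E13.5 and 71.6, 69.7 and 70.5 on E15.5 in XX libraries. Fdft1 in XY libraries was at 92.9, 87.9 and 86.7 CPM on E11.5, 75.9, 71.3 and 66.2 on E12.5, 115.2, 116.0 and 120.7 on E13.5 and 136.8, 142.3 and 147.3 on E15.5. XX libraries ranged from 52.6 to 71.6 CPM over the stages, while XY libraries rose after E12.5. The Fdft1 difference was -0.33 ± 0.08 (adjusted p = 0.00101) on E12.5 and -1.01 ± 0.08 (adjusted p = 3.47e-10) on E15.5. On log2(TPM + 1) the E12.5 value was -0.14 (limma, adjusted p = 0.268). Fdft1 shares 774 exonic bases with Ctsb on the opposite strand, and whether the counting used strand is not given in the sources used here. Msmo1, a C-4 methyl oxidase, was at 81.4, 61.4 and 70.2 CPM on E11.5, 61.2, 61.5 and 56.9 on E12.5, 81.8, 80.7 and 86.4 on E13.5 and 113.9, 123.1 and 115.7 on E15.5 in XX libraries. Msmo1 in XY libraries was at 110.3, 101.2 and 95.5 CPM on E11.5, 88.4, 81.3 and 87.3 on E12.5, 148.7, 155.8 and 152.1 on E13.5 and 158.8, 153.7 and 160.0 on E15.5. Both sexes were higher on E13.5 than on E12.5, and XY lay above XX without overlap at every stage. The Msmo1 difference was -0.53, -0.52, -0.88 and -0.42 at the 4 stages, with adjusted p of 4.54e-05, 2.44e-05, 1.48e-08 and 1.68e-04.
Sqle, squalene epoxidase, Lss, the cyclase that makes lanosterol, and Cyp51, its demethylase, were lower in XX on E13.5 and E15.5. Cyp51 was also lower in XX on E11.5 (-0.66 ± 0.10, adjusted p = 3.47e-05). Sqle on E15.5 was at 113.9, 121.4 and 109.1 CPM in XX, against 224.6, 229.1 and 229.9 CPM in XY, a log2 difference of -0.99 ± 0.12 (adjusted p = 3.63e-07). Lss on E15.5 was at 28.9, 29.9 and 22.6 CPM in XX, against 56, 59.4 and 57.3 CPM in XY, a difference of -1.09 ± 0.12 (adjusted p = 9.44e-08). Cyp51 on E15.5 was at 40.9, 49.8 and 43.3 CPM in XX, against 88.9, 88 and 82 CPM in XY, a difference of -0.95 ± 0.11 (adjusted p = 8.12e-08). At E12.5, none of Sqle, Lss and Cyp51 passed the test, with XX libraries at 104.9 to 125.3, 37.5 to 39.9 and 55 to 59.4 CPM and XY libraries at 90.8 to 116.5, 40.2 to 49.7 and 49.5 to 54.6 CPM. Tm7sf2, a sterol reductase expressed at low levels, differed most on E13.5, where XX libraries held 4.37, 4.03 and 5.06 CPM and XY libraries 10.1, 10.6 and 8.97 CPM (-1.14 ± 0.16, adjusted p = 3.41e-06); it shares 532 exonic bases with Vps51 on its own strand, which leaves the source of its counts uncertain. Hsd17b7, a keto-reductase, passed on E11.5 alone (-0.51, adjusted p = 8.43e-04), and not on log2(TPM + 1) (-0.22, adjusted p = 0.213).

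Summed over all 18 synthesis enzymes, TPM was 981.6 ± 142.5, 905.5 ± 43.1, 918.5 ± 24.1 and 967.8 ± 41.7 (mean ± SD, n = 3) in XX cells at the 4 stages. In XY cells the sum was 1186.6 ± 9.32, 834.1 ± 52.5, 1226.5 ± 41.9 and 1288.5 ± 22.4. The XX means spanned 905.5 to 981.6, with the widest spread between libraries on E11.5, and the XY means were lowest on E12.5 and highest on E15.5. The unit bears on the XY E12.5 sums. From E11.5 to E12.5 in XY cells, the median change of all genes was -0.13 on log2(TPM + 1) and 0.03 in the edgeR fit of counts. The part of this shift in the sums was not tested. The mevalonate arm summed to 591.3, 605.9 and 578.9 TPM in the XX libraries and 603.4, 623.5 and 614.8 in the XY libraries on E15.5, which overlap. The sterol arm summed to 366.5, 407.6 and 353.0 TPM in XX and 665.4, 689.3 and 669.2 in XY libraries on E15.5, which do not. By group mean on E15.5, the enzymes with the most transcripts were Hmgcs1 (189.7 TPM) and Fdps (163.6 TPM) in XX, and Fdps (248.0 TPM) and Hmgcs1 (138.8 TPM) in XY.

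**Figure D2:**
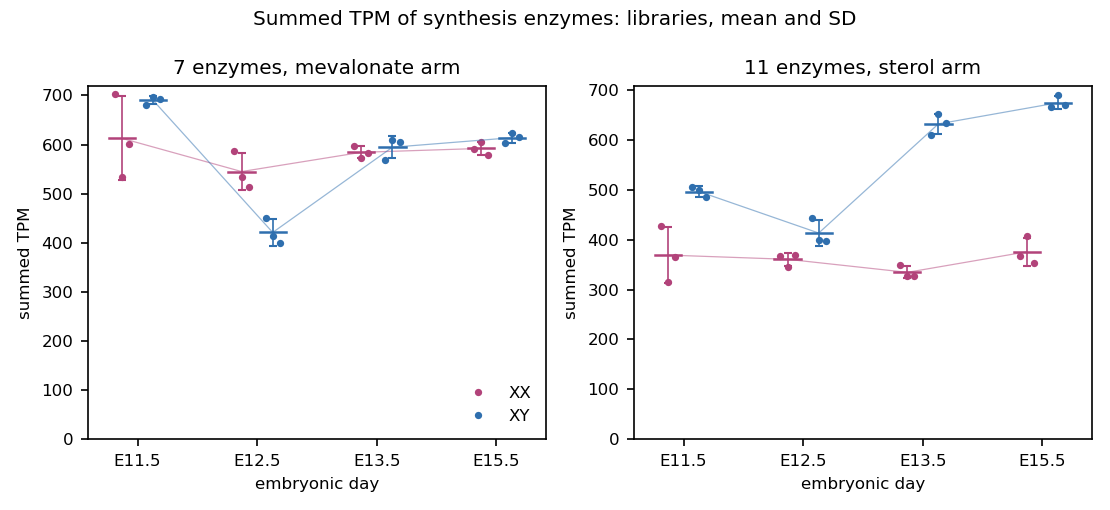
Summed TPM of the 7 mevalonate-arm and 11 sterol-arm enzymes in each library (points) by embryonic day, with the group mean and SD (n = 3) as bars; XX in pink, XY in blue. The mevalonate sums of the sexes overlap on E11.5, E13.5 and E15.5, whereas the sterol sums are 353.0 to 407.6 TPM in XX and 665.4 to 689.3 TPM in XY on E15.5.

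Among the regulators, Srebf1, Srebf2 and Scap separated the sexes most. Their RNA fell in XX cells between E12.5 and E13.5 and did not pass the test in XY cells in that step. In the same XX step, the summed TPM of 5 supporting-cell markers (Gata4, Nr5a1, Wt1, Lhx9 and Wnt6) went from 1859.6, 2014.3 and 1676.8 to 1046.0, 906.5 and 909.9. These 5 did not move alike. Mean CPM went from 630.6 to 167.6 in Gata4, 238.2 to 139.9 in Nr5a1 and 749.2 to 472.1 in Wnt6. Wt1 went from 788.6 to 578.4 and Lhx9 from 277.5 to 271.8. Lhx9 was chosen as a marker of both sexes but had a mean of 2.12 CPM at XY E13.5. Summed TPM of surface epithelium markers went from 97.7, 104.5 and 41.1 to 165.9, 169.4 and 180.2. The part of cell content in the falls of Srebf1, Srebf2 and Scap was not tested. By E15.5 the XY means were 6.93 times (Srebf1), 9.17 times (Srebf2) and 8.81 times (Scap) the XX means.
Srebf1 was at 42.1, 36.8 and 42.9 CPM on E11.5, 50, 57.1 and 47 on E12.5, 22, 18.6 and 18.7 on E13.5 and 16.1, 21.6 and 12.1 on E15.5 in XX libraries. Srebf1 in XY libraries was at 65.5, 81.4 and 52.2 CPM on E11.5, 99.5, 103.7 and 96.3 on E12.5, 101.5, 94.4 and 105.1 on E13.5 and 116.7, 110.2 and 118.1 on E15.5. The sexes did not overlap at any stage, and the XX E13.5 and E15.5 libraries lay below all others. The Srebf1 difference was -0.71 ± 0.15 (adjusted p = 9.36e-04), -0.96 ± 0.15 (adjusted p = 1.60e-05), -2.35 ± 0.16 (adjusted p = 6.64e-11) and -2.80 ± 0.17 (adjusted p = 4.99e-12).
Srebf2 was at 149.4, 88.1 and 148.2 CPM on E11.5, 89.9, 117.0 and 73 on E12.5, 36.1, 29.4 and 32.5 on E13.5 and 20.6, 25.7 and 18.9 on E15.5 in XX libraries. Srebf2 in XY libraries was at 114.7, 133.2 and 87.2 CPM on E11.5, 157.4, 149.2 and 134.0 on E12.5, 146.0, 122.9 and 168.9 on E13.5 and 203.7, 204.4 and 188.8 on E15.5. The sexes overlapped on E11.5, were apart on E12.5, and the ratio of their means was larger at each later stage. The Srebf2 difference was -0.65 ± 0.19 (adjusted p = 0.00567) on E12.5, -2.16 ± 0.20 (adjusted p = 8.05e-09) on E13.5 and -3.20 ± 0.21 (adjusted p = 3.02e-11) on E15.5. Without XX E12.5 replicate 3, the E12.5 difference of Srebf2 no longer passed (-0.45), nor did it on log2(TPM + 1) (-0.31, adjusted p = 0.175).
Scap was at 102.3, 94.9 and 102.0 CPM on E11.5, 107.8, 134.3 and 97.7 on E12.5, 46.7, 33.2 and 37.5 on E13.5 and 30.9, 39.7 and 24.1 on E15.5 in XX libraries. Scap in XY libraries was at 85.9, 109.1 and 64.6 CPM on E11.5, 293.5, 275.2 and 254.3 on E12.5, 267.4, 268.6 and 326.4 on E13.5 and 283.3, 275.0 and 276.4 on E15.5. XY libraries rose between E11.5 and E12.5, before XX libraries fell. The Scap difference was -1.28 ± 0.17 (adjusted p = 1.87e-06) on E12.5, -2.88 ± 0.19 (adjusted p = 1.87e-11) on E13.5 and -3.14 ± 0.19 (adjusted p = 5.19e-12) on E15.5. The sex-by-stage interaction had an adjusted p of 7.90e-08 for Srebf1, 8.70e-09 for Srebf2 and 1.10e-09 for Scap. The 3 genes lie at chr11:60199089-60222581, chr15:82147181-82205379 and chr9:110333288-110384950 (GRCm38). Scap shares 985 exonic bases with 5830462I19Rik on the opposite strand, and Srebf1 shares 109 with Rai1.
These 3 transcripts are rich in G and C (58.4% in Srebf1, 57.9% in Srebf2 and 59.1% in Scap), and GC-rich transcripts as a class read lower in late XX libraries. Over the 3037 tested genes above 56% GC, the median XX minus XY difference was 0.24 on E11.5, 0.12 on E12.5, -0.18 on E13.5 and -0.36 on E15.5. With trends on GC content and transcript length removed from every library, the E15.5 difference was -2.06 in Srebf1, -2.47 in Srebf2 and -2.37 in Scap, and all 3 passed (adjusted p = 1.09e-12, 9.56e-12 and 6.47e-13). The fall in XX cells from E12.5 to E13.5 was -1.38 ± 0.16 (adjusted p = 4.51e-06) in Srebf1, -1.52 ± 0.20 (adjusted p = 1.64e-05) in Srebf2 and -1.54 ± 0.18 (adjusted p = 4.39e-06) in Scap. With the trends removed, that change was -0.89, -1.03 and -1.0 (adjusted p = 9.68e-06, 4.53e-05 and 7.65e-06).
The INSIG genes showed smaller differences between the sexes. Insig1 passed at no stage between the sexes. It was at 177.5, 80.4 and 113.1 CPM in XX E11.5 libraries and 42.6, 46.6 and 39.4 CPM in XX E12.5 libraries, a change of -1.53 ± 0.21 (adjusted p = 2.84e-05), and at 106.6, 102.4 and 79.2 then 47.3, 49.3 and 51.7 CPM in XY libraries, a change of -0.96 ± 0.21 (adjusted p = 5.75e-04). Both sexes were thus lower on E12.5 than on E11.5, and XX E11.5 replicate 1 was the highest library. XX E15.5 libraries held 52.6, 47.4 and 76.8 CPM, a change of -1.06 ± 0.21 (adjusted p = 1.85e-04) from E11.5. Insig2 was higher in XY on E11.5, E12.5 and E13.5, with log2 differences of -0.29, -0.35 and -0.53. On log2(TPM + 1) none of these passed (adjusted p = 0.99, 0.289 and 0.105), and with GC and length trends removed the E11.5 value was -0.18 (adjusted p = 0.0605). Insig2 rose in XX cells from 29, 36.2 and 30.5 CPM on E11.5 to 67.9, 65.1 and 66.8 CPM on E15.5 (1.06 ± 0.08, adjusted p = 2.18e-09). In TPM the rise was smaller, with XX means of 41.8 on E11.5 and 59.5 on E15.5. Of the liver X receptors, Nr1h2 was the abundant one. Nr1h2 was at 124.8, 130.2 and 126.5 CPM on E11.5, 118.8, 101.1 and 114.3 on E12.5, 114.3, 107.8 and 103.8 on E13.5 and 96, 98.2 and 73.8 on E15.5 in XX libraries. Nr1h2 in XY libraries was at 96.7, 99.5 and 92.2 CPM on E11.5, 122.5, 107.5 and 102.8 on E12.5, 117.8, 133.4 and 124.5 on E13.5 and 108.6, 118.6 and 124.5 on E15.5. XX lay above XY on E11.5 and below it on E15.5, with log2 differences of 0.40 ± 0.10 (adjusted p = 0.00257) and -0.39 ± 0.10 (adjusted p = 0.0015). At 60.6% GC, Nr1h2 lost both calls when the trends were removed (0.12, adjusted p = 0.349, on E11.5 and 0.04, adjusted p = 0.713, on E15.5). Nr1h3 was low, with 1.22, 2.4 and 2 CPM in XX, against 0.521, 0.617 and 0.823 CPM in XY libraries on E15.5 (1.54 ± 0.38, adjusted p = 0.00108). In XY cells Nr1h3 fell from 1.01, 1.5 and 0.705 CPM on E11.5 to 0.56, 0.474 and 0.457 CPM on E12.5 (-1.10 ± 0.37, adjusted p = 0.0179), a call lost without XY E11.5 replicate 2 (-0.85). Macrophages also express Nr1h3; immune markers summed to 45.5 to 56.4 TPM in those XX libraries and 1.45 to 1.88 in the XY libraries, and their part in the difference was not tested.

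**Figure D3:**
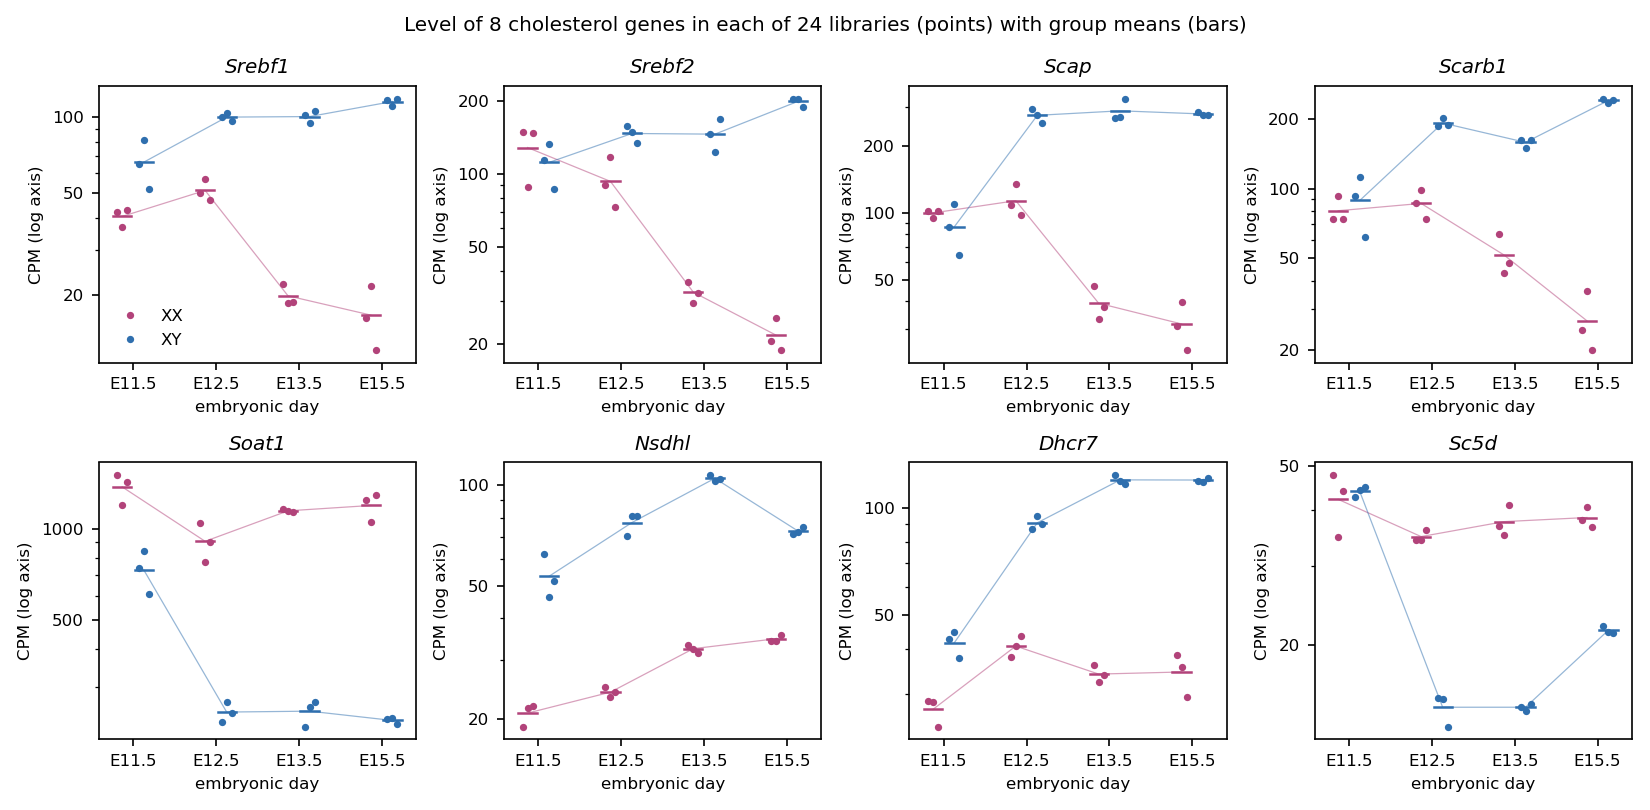
CPM (log axis) of 8 cholesterol genes in each library (points) by embryonic day, with group means as bars joined by thin lines; XX in pink, XY in blue, 3 libraries per group. Srebf1, Srebf2 and Scap drop in XX after E12.5, Soat1 and Sc5d drop in XY after E11.5, and Dhcr7 climbs in XY.

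The uptake gene Scarb1 and the storage gene Soat1 differed in opposite directions. Scarb1, the receptor that takes cholesteryl esters from high-density lipoprotein, was higher in Sertoli cells from E12.5 on, and Soat1, the enzyme that esterifies cholesterol for storage in lipid droplets, was higher in pre-granulosa cells at every stage. They lie at chr5:125277087-125341094 and chr1:156424525-156474331 (GRCm38).
Scarb1 was at 74, 93.1 and 73.6 CPM on E11.5, 86.3, 98.9 and 73.7 on E12.5, 63.9, 43.3 and 47.6 on E13.5 and 24.4, 35.9 and 20 on E15.5 in XX libraries. Scarb1 in XY libraries was at 92.7, 112.3 and 61.6 CPM on E11.5, 186.9, 202.4 and 188.0 on E12.5, 162.8, 150.7 and 162.6 on E13.5 and 245.6, 236.0 and 241.7 on E15.5. The sexes overlapped on E11.5 only; XX E15.5 libraries were the lowest and XY E15.5 libraries the highest. The Scarb1 difference was -1.16 ± 0.20 (adjusted p = 3.00e-05) on E12.5, -1.62 ± 0.20 (adjusted p = 4.21e-07) on E13.5 and -3.18 ± 0.21 (adjusted p = 3.50e-11) on E15.5. With GC and length trends removed it was -2.82 (adjusted p = 1.24e-11) on E15.5.
Soat1 was at 1505.0, 1193.4 and 1426.9 CPM on E11.5, 1041.9, 776.2 and 906.2 on E12.5, 1158.6, 1140.2 and 1138.6 on E13.5 and 1243.7, 1048.3 and 1289.0 on E15.5 in XX libraries. Soat1 in XY libraries was at 741.7, 840.7 and 608.1 CPM on E11.5, 228.5, 266.5 and 245.9 on E12.5, 221.2, 257.2 and 267.6 on E13.5 and 234.6, 235.4 and 225.0 on E15.5. Every XX library lay above every XY library of its stage. The Soat1 difference was 0.91 ± 0.12 (adjusted p = 4.95e-06), 1.88 ± 0.13 (adjusted p = 4.43e-11), 2.20 ± 0.13 (adjusted p = 3.46e-12) and 2.37 ± 0.13 (adjusted p = 1.11e-12). Soat1 ranged from 128.9 to 1064.3 TPM over the 24 libraries. Its mean TPM was the highest of the 32 genes in the 4 XX groups and in XY E11.5, but not in later XY groups, where on E15.5 Soat1 was at 133.2 TPM and Fdps at 248.0 TPM.
Scarb1 and Soat1 are also expressed by steroid-producing cells. Steroidogenic markers (7 genes) summed to 331.2 to 351.2 TPM in XX and 117.3 to 150.4 TPM in XY libraries on E15.5, and to 274.9 to 323.4 and 311.7 to 382.9 TPM on E11.5. Hsd3b1, one of these markers, was at 295.3, 265.2 and 276.5 CPM in XX, against 29.7, 34.5 and 35.4 CPM in XY on E15.5. Cyp11a1, the enzyme that makes the first steroid from cholesterol, was at 217.8, 95.1 and 220.2 CPM in XX, against 146.6, 151.1 and 114.6 CPM in XY on E11.5, and at 1.04, 0.8 and 0.178 CPM in XX, against 12, 31.2 and 14.9 CPM in XY on E15.5. The part of steroid-producing cells in the differences of Scarb1 and Soat1 was not tested. Stard4, a carrier of free cholesterol between membranes, was at 17.1, 19.1 and 18.7 CPM in XX, against 41.8, 42.3 and 39.4 CPM in XY on E15.5 (-1.17 ± 0.15, adjusted p = 5.51e-07), its only stage with a called difference.
The lysosomal pair that releases cholesterol from endocytosed lipoprotein did not move together. Npc1, the membrane protein, was at 70.4, 79 and 61.9 CPM in XX, against 29.1, 36 and 32.8 CPM in XY on E15.5 and was higher in XX from E12.5 on (0.78, 0.43 and 1.11 ± 0.09, adjusted p = 1.10e-09). It overlaps 511 exonic bases of Rmc1 on the opposite strand. Npc2, the soluble partner, was higher in XY on E11.5 and E12.5, with log2 differences of -0.29 (adjusted p = 0.0348, overlapping libraries) and -0.46 (adjusted p = 7.73e-04). The E11.5 call of Npc2 was lost when any of several single libraries was left out, with -0.16 without XX replicate 1.

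The exporters Abca1 and Abcg1, which load cholesterol onto lipoprotein particles and are classic targets of the liver X receptors, passed with opposite signs at different stages. They lie at chr4:53030787-53159895 and chr17:31057675-31117988 (GRCm38). Abca1 was at 33.9, 24.4 and 38.4 CPM on E11.5, 51.4, 44.3 and 38.1 on E12.5, 32.9, 30.4 and 29.2 on E13.5 and 39.8, 39 and 38.2 on E15.5 in XX libraries. Abca1 in XY libraries was at 21.2, 26 and 26.2 CPM on E11.5, 100.2, 92.2 and 86.9 on E12.5, 81.2, 81.5 and 86.8 on E13.5 and 32.8, 30.9 and 26.9 on E15.5. The XY mean was 2.09 times the XX mean on E12.5 and 2.7 times on E13.5, and below it on E11.5, with overlapping libraries, and on E15.5. The Abca1 difference was 0.40 ± 0.13 (adjusted p = 0.0227), -1.06 ± 0.13 (adjusted p = 6.54e-07), -1.43 ± 0.14 (adjusted p = 9.11e-09) and 0.37 ± 0.14 (adjusted p = 0.0212).
Abcg1 was at 35, 52.6 and 38.6 CPM on E11.5, 40.6, 29.4 and 19.4 on E12.5, 60.7, 63.2 and 61.8 on E13.5 and 91, 76.2 and 101.0 on E15.5 in XX libraries. Abcg1 in XY libraries was at 13.2, 11.1 and 6.95 CPM on E11.5, 136.4, 82.1 and 76.2 on E12.5, 162.5, 214.8 and 206.1 on E13.5 and 172.2, 175.9 and 183.5 on E15.5. At E11.5 every XX library lay above every XY library, and from E12.5 on every XY library lay above every XX library. The Abcg1 difference was 2.02 ± 0.26 (adjusted p = 3.59e-06), -1.72 ± 0.25 (adjusted p = 6.51e-06), -1.65 ± 0.25 (adjusted p = 7.90e-06) and -0.99 ± 0.25 (adjusted p = 0.00136). The E11.5 value of Abca1 no longer passed without XX replicate 1 (0.35), XX replicate 3 (0.24) or XY replicate 1 (0.29), and its E15.5 value no longer passed without XX replicate 1 (0.35). On log2(TPM + 1) neither passed (0.21, adjusted p = 0.288, and 0.23, adjusted p = 0.199). The test of the sex-by-stage interaction gave an adjusted p of 2.54e-08 for Abca1 and 6.82e-08 for Abcg1.
Macrophages also express both exporters. Summed immune markers were 335.3, 178.3 and 499.8 TPM in XX E11.5 replicates 1 to 3, where Abcg1 was at 35, 52.6 and 38.6 and Abca1 at 33.9, 24.4 and 38.4 CPM, and the library with the fewest immune transcripts had the most Abcg1 and the least Abca1. In XY libraries from E12.5 on, where Abcg1 was higher than in XX, immune markers summed to 0.67 to 2 TPM. The part of immune cells in the XX E11.5 levels was not tested.

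**Figure D4:**
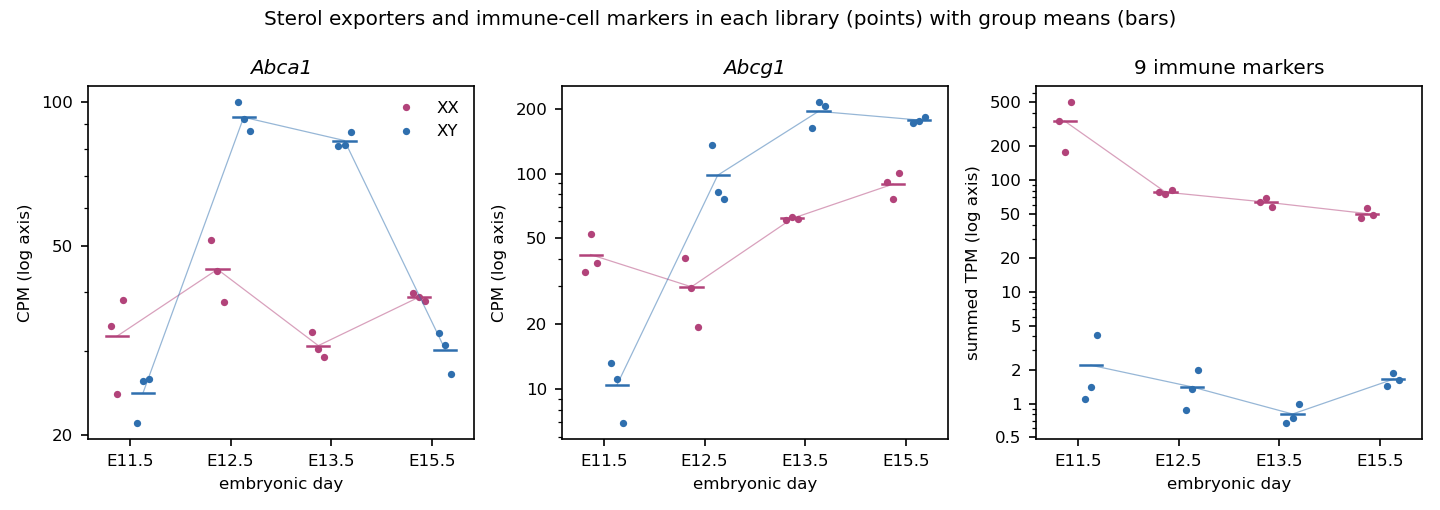
CPM (log axis) of Abca1 and Abcg1, and summed TPM (log axis) of 9 immune-cell markers, in each library (points) by embryonic day with group means as bars; XX in pink, XY in blue. Abcg1 is higher in XX on E11.5 and higher in XY afterwards, while immune markers are higher in XX at all 4 stages.

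The comparison of successive stages within a sex asked when these genes change. In Sertoli cells the enzymes of the sterol arm rose together between E12.5 and E13.5. Of the 11, 10 rose and 0 fell, with a median log2 change of 0.48 beside -0.01 for all genes. Over all 32 genes, 14 rose and 0 fell in that step, against a background of 8.02% of genes that rose and 8.62% that fell (16.6% in either direction). The largest changes among the enzymes were Tm7sf2 (0.83 ± 0.16, adjusted p = 0.0011), Msmo1 (0.83 ± 0.09, adjusted p = 1.30e-06) and Sqle (0.81 ± 0.12, adjusted p = 9.41e-05). Sqle went from 116.5, 91.4 and 90.8 to 161.4, 186.1 and 177.3 CPM, and Msmo1 from 88.4, 81.3 and 87.3 to 148.7, 155.8 and 152.1 CPM, both without overlap. Sc5d alone of the arm did not pass, with 15.3, 15.2 and 13.2 CPM on E12.5 and 14.6, 14.3 and 14.8 CPM on E13.5. The count of 12 synthesis enzymes that rose stayed 12 with GC and length trends removed and was 10 on log2(TPM + 1). In XX cells the same step had 3 rises and 2 falls in the sterol arm, or 0 and 4 on log2(TPM + 1); the difference between the sexes in this step alone was not tested. Srebf1, Srebf2 and Scap did not pass in XY cells in this step, with Srebf1 at 99.5, 103.7 and 96.3 then 101.5, 94.4 and 105.1 CPM, Srebf2 at 157.4, 149.2 and 134.0 then 146.0, 122.9 and 168.9 CPM and Scap at 293.5, 275.2 and 254.3 then 267.4, 268.6 and 326.4 CPM.
The step before it, from E11.5 to E12.5, was mixed in Sertoli cells: 24 of 32 passed (background 51.9%), 10 up (background 27.1%) and 14 down (background 24.8%). Of the 18 synthesis enzymes, 3 rose and 10 fell. Those that rose were Nsdhl (0.53), Ebp (0.83) and Dhcr7 (1.12 ± 0.10, adjusted p = 3.95e-09). Sc5d fell most (-1.59 ± 0.10, adjusted p = 6.78e-11), followed by Acat2 (-0.90) and Cyp51 (-0.89). Outside synthesis, Abcg1 (3.24 ± 0.27, adjusted p = 4.28e-09), Abca1 (1.93 ± 0.14, adjusted p = 2.60e-10), Scap (1.66 ± 0.17, adjusted p = 8.51e-08) and Scarb1 (1.11 ± 0.19, adjusted p = 6.54e-05) rose, and Soat1 fell (-1.56 ± 0.13, adjusted p = 1.55e-09). With TPM in place of counts the split of the 32 genes was 7 up and 16 down, and the median of all genes moved by -0.16. From E13.5 to E15.5, 10 passed (background 21.3%), 5 up and 5 down (background 9.79% down, the rest up); without XY E15.5 replicate 1, or without replicate 2, 6 passed. Abca1 fell most in this step (-1.46 ± 0.14, adjusted p = 2.05e-07).
In pre-granulosa cells the changes were spread over the steps. From E11.5 to E12.5, 16 passed (background 34.0%), 6 up (background 16.7%) and 10 down (background 17.3%). That count was 10 without XX E11.5 replicate 1 and 4 when the fit held just the 6 libraries of the contrast, and on log2(TPM + 1) the split was 8 up and 5 down. From E12.5 to E13.5, 17 passed (background 31.7%), 9 up (background 14.2%) and 8 down (background 17.4%), and 11 passed without XX E13.5 replicate 2. With DESeq2 size factors, which change the scaling alone, that split was 9 up and 6 down. On log2(TPM + 1), where unit, length correction and test change together, it was 3 up and 13 down, with the median of all genes moved by -0.16. The falls of Srebf1, Srebf2 and Scap in this step were larger than 1 on the log2 scale, and Abcg1 rose (1.05 ± 0.25, adjusted p = 0.00317). From E13.5 to E15.5, 13 passed (background 25.6%), 6 up (background 12.8%) and 7 down (background 12.8%). Scarb1 fell in both of the last steps (-0.75 and -0.95 ± 0.20, adjusted p = 0.00177), and the first of these no longer passed without XX E13.5 replicate 2 (-0.60).

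**Figure D5:**
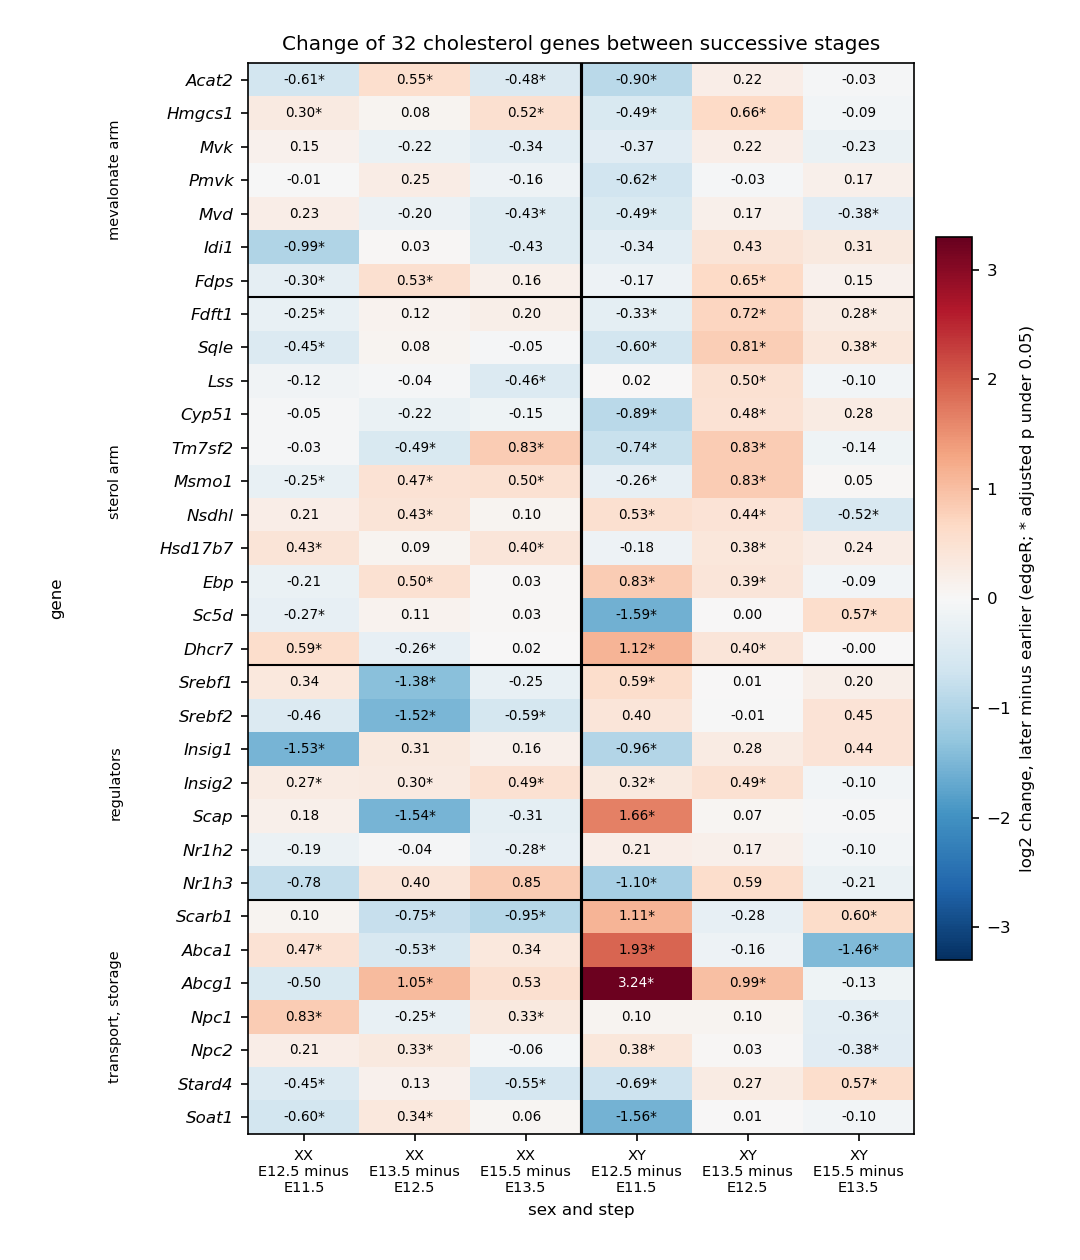
Log2 change of the 32 cholesterol genes (rows, by role) in each step between successive embryonic days (columns), XX on the left and XY on the right, from the edgeR fit of 24 libraries; red is a rise, blue a fall, and a star marks an adjusted p under 0.05. The column XY E13.5 minus E12.5 holds 14 starred rises and no starred fall.

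Over the whole span from E11.5 to E15.5, 16 of the 32 genes rose and 5 fell in Sertoli cells (21 in all, background 57.7%; 30.2% up and 27.5% down). In pre-granulosa cells 11 rose and 14 fell (25 in all, background 59.4%; 28.3% up and 31.1% down). Among the synthesis enzymes, 9 rose and 4 fell in Sertoli cells, and 7 rose and 7 fell in pre-granulosa cells. Abcg1 had the largest rise in Sertoli cells (4.09 ± 0.28, adjusted p = 1.26e-10), followed by Scap (1.69 ± 0.18, adjusted p = 5.06e-08) and Dhcr7 (1.51 ± 0.10, adjusted p = 2.22e-11). Srebf2 had the largest fall in pre-granulosa cells (-2.57 ± 0.21, adjusted p = 4.34e-09), and was at -1.83 (adjusted p = 4.44e-09) with GC and length trends removed, a fit that moved the median of all genes by -0.11 in this contrast. Any change over the 4 stages was found for 30 genes in XX (background 74.0%), all but Pmvk and Sc5d, and for 29 in XY (background 70.3%), all but Mvk, Idi1 and Nr1h3. The difference between the sexes varied with stage in 28 of the 32 (sex-by-stage interaction, background 70.1%). The 4 genes without such a call were Mvk, Fdps, Insig1 and Nr1h3.

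Other genes of the pathway were read from lists of genes outside the 32. Of 11 genes of fatty acid synthesis, on which SREBP proteins also act, those higher in XY numbered 8, 10, 10 and 9 at the 4 stages (background 20.6%, 31.5%, 33.3% and 34.4%), and those higher in XX 0, 1, 1 and 1. Their median log2 difference was -0.75, -1.23, -1.60 and -1.62. Their summed TPM was 251.3 to 359.7 in XX and 1198.3 to 1308.0 in XY libraries on E15.5. Me1, malic enzyme, a source of NADPH, was at 61.6 ± 2.49 CPM in XX, against 972.3 ± 64.4 CPM in XY on E13.5 (-3.98 ± 0.15, adjusted p = 6.64e-15). Of 25 other genes of sterol synthesis and uptake, those with more RNA in XX numbered 6, 9, 8 and 6 (background 21.4%, 30.5%, 32.8% and 34.9%), and those with more in XY 5, 10, 11 and 11, with the same background as above. Mylip, a ubiquitin ligase, was at 25.7 ± 3.31 CPM in XX, against 1.69 ± 0.336 CPM in XY on E15.5 (3.93 ± 0.18, adjusted p = 1.07e-13). Abcg4, also of this list, went the other way, with 0.798 ± 0.362 CPM in XX, against 14.2 ± 0.552 CPM in XY on E15.5. Apoe, a lipoprotein component that macrophages also make, was at 256.2 ± 17.4 CPM in XX, against 15.2 ± 2.17 CPM in XY on E15.5 (4.08 ± 0.16, adjusted p = 1.03e-14); the part of immune cells in it was not tested. Of 13 genes of the isoprenoid branch and SREBP control, 2, 3, 2 and 2 had more RNA in XX and 3, 8, 9 and 4 more in XY, against the same shares of all genes.

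Several of these counts could hold reads of neighbouring genes. Besides those given above, exons of Hmgcs1, Idi1, Lss, Cyp51 and Nr1h3 overlap exons of another annotated gene in GENCODE M21, and Acat2 has a close paralog, Acat3. Whether the counting used strand is not given in the sources used here, so reads of overlapping genes on opposite strands cannot be told apart.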

How the data were processed

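RNA was sequenced from sorted supporting cells in 24 libraries, 3 for each of 8 groups. The deposited tables give each gene's estimated count and TPM per library; that they are estimates was read from the values, 17.5% of which are not whole. The submitters' processing notes name the mm10 build; aligner, counter and strand are not given in the sources used here. Replicates are separate samples by their labels, and nothing says that they came from separate litters, so p-values measure the spread between these samples.

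The estimated counts deposited by the authors were rounded and fitted with edgeR 4.0.16 (R 4.3.3): filterByExpr left 16190 genes, libraries were scaled by TMM, and a robust quasi-likelihood fit over the 8 groups (16 residual degrees of freedom) gave 12 contrasts and 3 F tests, adjusted by Benjamini-Hochberg over all tested genes, with calls at an adjusted p under 0.05. The common biological coefficient of variation was 17.4%. A difference is log2 with its SE from that fit, and CPM uses the TMM-scaled totals. The deposited TPM of the authors were used for sums and for limma 3.58.1 fits of log2(TPM + 1). Depth of 11275251 to 37256881 counts sets the precision.

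The genes and lists were chosen with earlier results of these data known. All 32 genes may be named; values of every library are given for those with 1 sign at all 4 stages, with signs that differ, and, in the groups compared, for those with a called difference of at least 1 on the log2 scale. Of other genes, those named were among the 3 largest called differences of a contrast with at least 10 CPM and no overlap. Alternatives were DESeq2 1.42.0 and its size factors, no count filter, TPM fits, a replicate block, only the libraries compared, leaving out each library, and removal of GC and length trends. The script was tested on simulated data. Same-numbered replicates were not paired, as given in the closing section. Figures were drawn with matplotlib 3.10.9.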

Additional observations from a re-analysis of the deposited data

Results flagged for a closer look

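The difference between XX and XY cells varied with stage in 28 of the 32 cholesterol genes (edgeR interaction test over all 16190 genes, adjusted p under 0.05), where 70.1% of all genes tested did so. In 4 genes the difference passed the test with opposite signs at different stages, as it did in 13.9% of all genes tested. For Hmgcs1 the interaction had an adjusted p of 7.34e-05, with a difference of -0.31 on E11.5 and 0.51 on E15.5. For Nr1h2 it was 2.91e-04, with 0.40 on E11.5 and -0.39 on E15.5; with GC and length trends removed neither difference passed (0.12 and 0.04, adjusted p = 0.349 and 0.713), and nor did the interaction (adjusted p = 0.53). For Abca1 it was 2.54e-08, with -1.43 on E13.5 and 0.37 on E15.5. For Abcg1 it was 6.82e-08, with 2.02 on E11.5 and -1.72 on E12.5. As given above, the E11.5 call of Hmgcs1 was lost when any of several single libraries was left out. The calls of Abca1 with more RNA in XX, on E11.5 and E15.5, were also lost without certain single libraries, and neither passed on log2(TPM + 1).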

How the results depend on the processing

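Of 315 called differences and F tests of the 32 genes, 309 held with DESeq2 size factors, 311 with DESeq2, 302 without the count filter, 274 on log2(TPM + 1), 273 on log2(TPM + 0.1), 266 on log2(TPM + 1) without a filter and 287 with GC and length trends removed, an alternative chosen after seeing the data. In fits of only the 6 libraries compared, 200 of 228 held. The counts of called genes were then 10 instead of 17 for XX minus XY on E11.5 and 4 instead of 16 for XX E12.5 minus E11.5. For XY E15.5 minus E13.5 the count was 17 instead of 10. These fits hold fewer libraries and do not share 1 estimate of the spread over the 8 groups. The spread differed between groups, with an SD of Idi1 of 32.5 CPM at XX E11.5 and 1.42 at XX E12.5. For Insig1 the SD was 49.4 and 3.58 CPM. The values that reversed were Ebp in XX E15.5 minus E11.5 (-0.05) and Nr1h2 in XX minus XY on E15.5 (0.04) with the trends removed, and Sc5d (0.07) and Insig2 (-0.00) in XX E12.5 minus E11.5 in all 3 TPM fits. The cause was not tested.

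Leaving out 1 library kept 7324 of 7560 calls and reversed 0. Counts of called genes then ranged from 14 to 19, 20 to 22, 22 to 25 and 24 to 27 for XX minus XY at the 4 stages in order. In XX they ranged from 10 to 20, 11 to 18 and 9 to 16 over the 3 steps and 23 to 26 over the whole span, and in XY from 23 to 27, 12 to 15, 6 to 12 and 20 to 25. They ranged from 28 to 31 and 28 to 32 for any change in XX and XY and from 28 to 30 for the interaction, and the number of genes with 1 sign at all 4 stages was 7 each time.

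The replicate block kept 313 of 315 calls and lost 2. Deviations of same-numbered libraries correlated between -0.11 and 0.298 over 84 pairs (median 0.00223), so the numbers were not taken as pairs. Depth limits Nr1h3, which had the lowest mean TPM of the 32 genes (0.972).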
